A study of Mus musculus with 84 samples.

Results

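The carboxylesterase 1 family of the mouse is a row of neighbouring genes on chromosome 8 that encode serine hydrolases made in large amounts by the liver. Its measured members were taken here as the genes whose Ensembl identifier carries the symbol Ces1b, Ces1c, Ces1d, Ces1e, Ces1f or Ces1g, which gave 6 of the 17695 genes in the count table, and all 6 passed the filter on low counts. Ces1a and Ces1h are also in the table, but with 0 to 7 and 0 to 3 counts per mouse and a median of 0 they stayed under the filter and were not tested. The members were read in the livers of 84 male B6C3F1 mice (8 weeks old), gene by gene and as a summed family level, after 7 days on a diet with or without an organophosphate pesticide (OPP).

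The 12 groups held 7 mice each. Control mice ate the same diet with no OPP in it. The treated mice received fenthion (FT) at 2.5, 5, 10 or 20 ppm, methidathion (MT) at 10, 25, 50 or 100 ppm, or parathion (PT) at 20, 40 or 80 ppm. Estimated intakes of FT ran from 0.375 to 3 mg/Kg-bw/day. Those of MT were 1.5 to 15 and those of PT 3 to 12 in the same unit. Each group combined 2 mice of block 1, 3 of block 3 and 2 of block 4, and the RNA of 7 mice (2 control, 2 FT 20 ppm, 2 MT 100 ppm and 1 MT 10 ppm) was isolated at the U.S. EPA, that of the other 77 at Expression Analysis (EA).

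As background, carboxylesterases cleave ester and amide bonds with an active serine, and the same serine is phosphorylated by the oxons that the liver forms from FT, MT and PT. Each enzyme molecule so bound takes an oxon molecule out of circulation before it reaches acetylcholinesterase, and rodents differ from people in carrying a carboxylesterase, the Ces1c product, in plasma. Inside the hepatocyte most Ces1 enzymes are held in the endoplasmic reticulum by a short retrieval signal at the C terminus. There Ces1d (triacylglycerol hydrolase) mobilises stored fat for very low density lipoprotein (VLDL), Ces1f is a second triacylglycerol hydrolase, Ces1g (esterase-x) acts in hepatic lipid metabolism, and Ces1e (egasyn) anchors beta-glucuronidase. Ces1b is the least characterised member.

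All 6 members lie on the minus strand of chromosome 8 (GRCm39), side by side. Ces1b (ENSMUSG00000078964) spans chr8:93780578-93806709, Ces1c (ENSMUSG00000057400) chr8:93825643-93857942 and Ces1d (ENSMUSG00000056973) chr8:93892693-93924466. Ces1e (ENSMUSG00000061959) spans chr8:93927846-93956247, Ces1f (ENSMUSG00000031725) chr8:93981999-94006375 and Ces1g (ENSMUSG00000057074) chr8:94028683-94063953.

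The copies are similar enough to bear on the counts. TempO-Seq reads are 50 bases long, and a read from a stretch that copies share cannot be placed by its sequence. Ces1b and Ces1c were the closest pair, with 90.9% of aligned coding bases identical. The other pairs of members had 72.6% to 81.5%. Of all 50-base windows in the annotated transcripts of Ces1c, 10.98% also occurred in another gene, against 4.58% for Ces1b, 2.01% for Ces1e, 1.38% for Ces1g, 0.669% for Ces1f and 0.541% for Ces1d. Ces1b and Ces1c shared 190 such windows and Ces1c and Ces1e 46. The longest identical coding stretch of each pair is shown because any probe inside it would read both genes. The Ces1b and Ces1c run of 118 bases lies in exon 14 of Ces1b (chr8:93783534-93783651, GRCm39, minus strand) and exon 13 of Ces1c (chr8:93825812-93825929). The Ces1c and Ces1e run of 95 bases lies in exon 2 of both (chr8:93857354-93857448 and chr8:93950554-93950648, minus strand).
Ces1b and Ces1c: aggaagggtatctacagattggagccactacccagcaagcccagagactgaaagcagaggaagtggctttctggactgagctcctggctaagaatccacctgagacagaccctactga
Ces1c and Ces1e: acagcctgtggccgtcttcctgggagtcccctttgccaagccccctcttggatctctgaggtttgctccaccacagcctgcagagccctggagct
The probe sequences were not used here, so it is not known whether a probe falls in either run. The authors' counting method splits a read that fits several genes, which leaves counts that are not whole numbers, and such counts occurred for Ces1c in 71 of 84 mice (84.5%), for Ces1e in 34 (40.5%) and for Ces1b in 25 (29.8%), but in no mouse for Ces1d, Ces1f or Ces1g. The departures were very small for Ces1b and Ces1e, as in mouse 1 of FT 10 ppm with counts of 64.0005 and 598.003. Those of Ces1c could be larger, as in mouse 1 of MT 10 ppm with a count of 71165.5. Such counts do not show which gene holds the rest of a split read. Whether values of Ces1b, Ces1c and Ces1e contain reads of a neighbour was not tested.

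**Figure D1:**
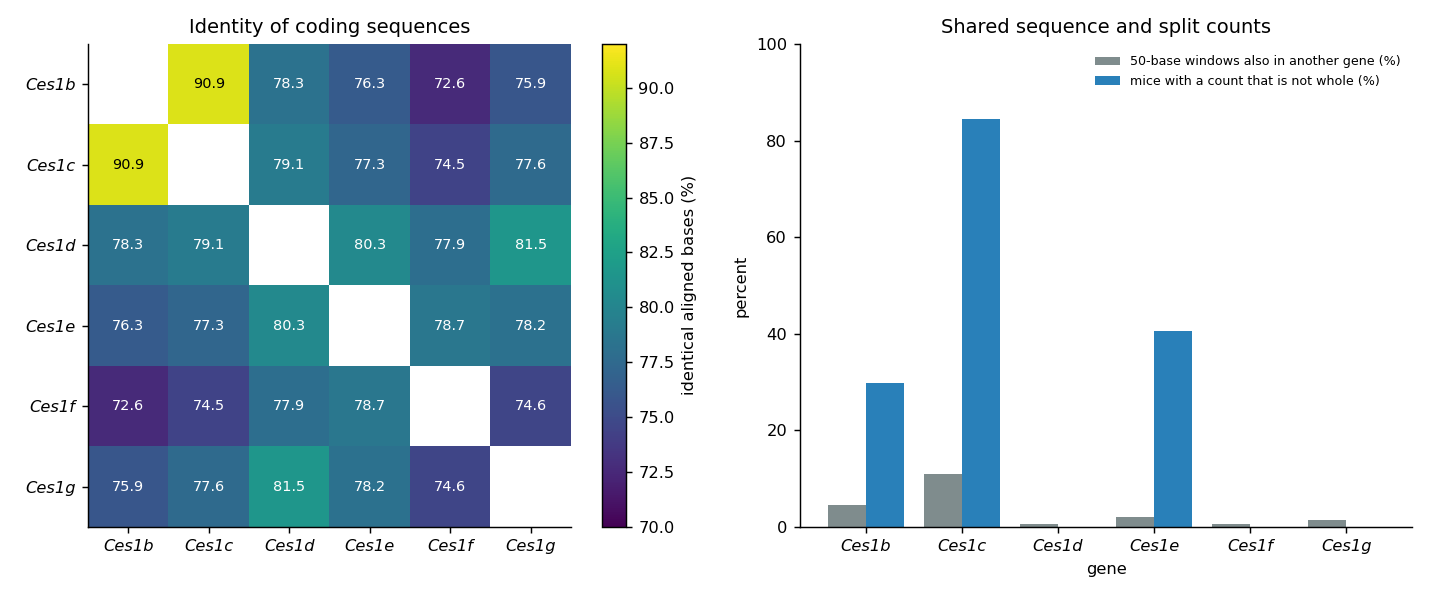
The left panel shows the percentage of identical aligned bases between the coding sequences of each pair of members. The right panel shows, for each member, the percentage of 50-base transcript windows found in another gene (grey) and the percentage of the 84 mice with a count that is not whole (blue); Ces1b, Ces1c and Ces1e alone have such counts among the members.

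The likeness of Ces1b and Ces1c extends into their promoters. RefSeq (GRCm38.p6) windows from 250 bases before to 50 bases after a start site were at hand for 4 members (Ces1b, Ces1c, Ces1e and Ces1g). Over the 150 bases upstream of the start, 94.9% of 138 aligned bases were identical between Ces1b and Ces1c, against 48.3% to 60% in the other pairs. Both sequences are shown on the minus strand, 5′ to 3′ (Ces1b chr8:93079941-93080090 and Ces1c chr8:93131284-93131433, GRCm38.p6), with their longest shared run of 40 bases in capitals.
Ces1b: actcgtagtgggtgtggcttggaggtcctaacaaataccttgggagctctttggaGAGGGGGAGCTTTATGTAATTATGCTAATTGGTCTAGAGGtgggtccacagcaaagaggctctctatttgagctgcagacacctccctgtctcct
Ces1c: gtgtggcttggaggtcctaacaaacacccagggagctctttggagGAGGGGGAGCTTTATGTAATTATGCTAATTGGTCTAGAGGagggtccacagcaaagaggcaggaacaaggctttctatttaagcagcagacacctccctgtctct
Of 5 motifs searched on both strands of the whole windows (the TATA box TATAAA, the half-site of HNF1 written GTTAAT, the nuclear receptor half-site AGGTCA, the core of FOXA sites TGTTTAC, and the CCAAT box), the CCAAT box occurred on the reverse strand inside the shared run of both genes, 68 bases before the start of Ces1b and 78 before that of Ces1c. The CCAAT box also occurred in the Ces1g window, as did the TATA box on the reverse strand, and no motif of the 5 occurred in that of Ces1e. The CCAAT box is common, being present in 37.4% of 32851 promoter windows, while the TATA box was in 13.6%, the nuclear receptor half-site in 16.3%, the HNF1 half-site in 7.10% and the FOXA core in 3.65%.

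Ces1c dominated the family counts. It was the 17th gene of the table by median count, with 33569 to 122492 counts per mouse. In the sum over all mice 97.1% of the family's counts were Ces1c (89.96% to 99.3% in single mice), so the summed family level is in practice that of Ces1c. Median counts of the others were 999 for Ces1f, 495 for Ces1d, 270 for Ces1e, 253.5 for Ces1g and 57.5 for Ces1b. A probe count does not scale with transcript number in the same way for different genes, so these figures describe counting precision and not an order of transcript abundance. Levels below are counts scaled to the mouse's total (CPM), and differences are log2 fold changes of the edgeR fit with their standard error (SE), adjusted over all 10415 genes tested. A change was called at an adjusted p under 0.05.

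Total counts ran from 6950381 to 15300589 per mouse, at which 3 counts are worth 0.196 to 0.432 CPM. Hepatocyte markers were detected throughout: 7 of 8 were in the table, none was at 0 in any mouse, and albumin (Alb) lay between 2984 and 14967 CPM. Markers of other cell types, such as Stab2 (endothelial), Dcn (stellate) and Ptprc (leukocyte), were also at 0 in no mouse. Detection in every mouse therefore does not by itself show the identity of a sample. In these bulk samples a lower level from fewer cells of a type cannot be told apart from less RNA per cell.

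Of the 6 members 5 were more variable than most genes of the same level. The biological coefficient of variation between mice of a group, as estimated by edgeR, was 0.606 for Ces1e, 0.481 for Ces1f, 0.383 for Ces1d, 0.360 for Ces1g and 0.352 for Ces1b, above 94.7% to 99.3% of all genes tested. Among genes near in level these 5 stood above 95.2% to 99.6%. That of Ces1c was 0.183, above 62.3% of all genes tested and at 47.6% among the 21 genes near its level. Over the 84 mice Ces1c spanned a 3.54-fold range, Ces1d 7.02-fold, Ces1b 13.9-fold, Ces1g 27.4-fold, Ces1e 252-fold and Ces1f 305-fold. That spread sets what the 7 mice per group can show: the SE of a comparison with control was near 0.14 for Ces1c but 0.47 to 0.49 for Ces1e.

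**Figure D2:**
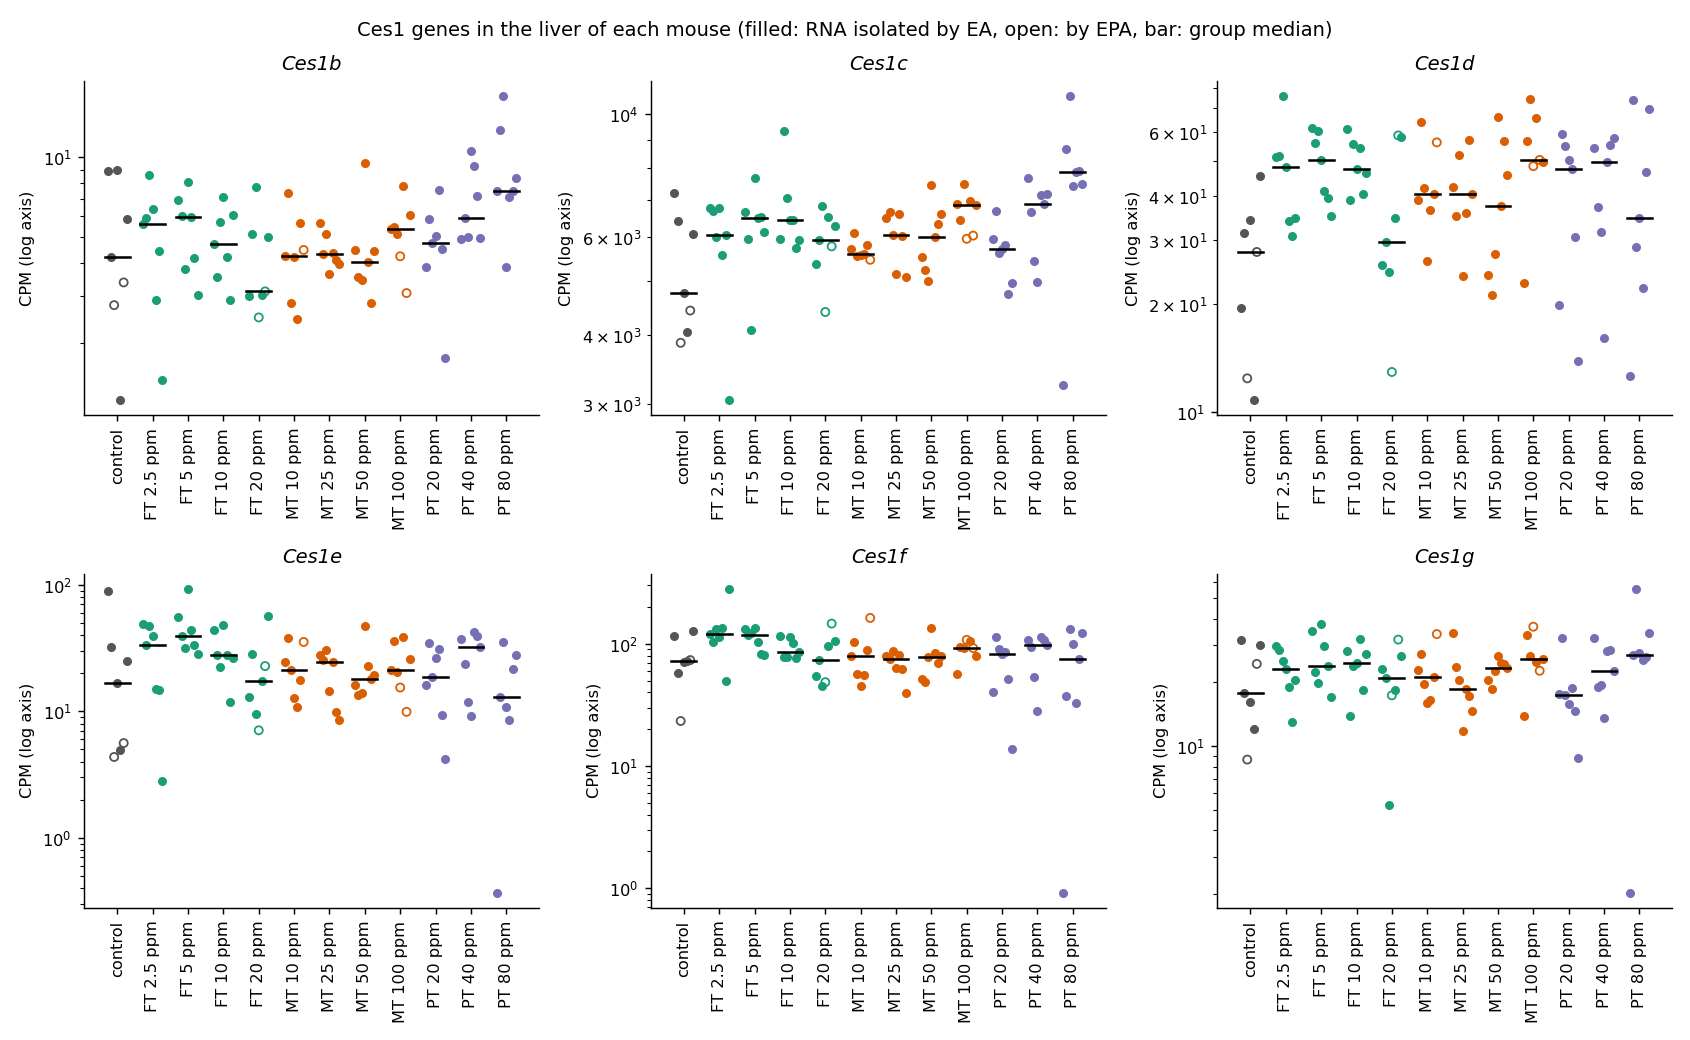
Each panel shows the CPM of a member (log axis) in every mouse, by group; filled points are mice with RNA isolated by EA, open points by the EPA, and bars are group medians. In the Ces1c panel 6 of the 7 mice at PT 80 ppm stand above every control mouse and 1 below every control mouse, and in the Ces1d panel 39 of 77 treated mice lie above the highest control.

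Whether an OPP shifted any member was asked first against the control group. In 11 comparisons and 66 tests of members, edgeR called none, while 12 had an unadjusted p under 0.05. At that cut the share of all genes ran from 3.98% (FT 20 ppm) to 30.5% (PT 80 ppm). DESeq2 called 1 (Ces1c at PT 80 ppm) and limma 2 (Ces1b and Ces1c at PT 80 ppm). More were called with the authors' adjusted values, in which tests understate the spread within groups. Their counts are given in the last section. The share of all genes called was 18.6% at PT 80 ppm, 1.57% at FT 10 ppm, 0.0768% at MT 100 ppm, 0.0096% at each of FT 2.5 ppm, MT 50 ppm and PT 20 ppm, and 0% in the remaining groups (FT 5 ppm, FT 20 ppm, MT 10 ppm, MT 25 ppm, PT 40 ppm). With 6 members, a count of 0 is close to the share called at PT 80 ppm and says nothing particular of the family. The same 7 control mice serve all 11 comparisons, so their values enter each of them.

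Ces1c, the plasma carboxylesterase, was measured in control livers at 3865 CPM in the lowest mouse, 4765 at the median and 7201 in the highest. At PT 80 ppm the corresponding values were 3243, 7859 and 10785, and at MT 100 ppm 5958, 6867 and 7471. At PT 80 ppm 6 mice lay above the whole control range and the 7th below it, whereas at MT 100 ppm the groups overlapped, with 1 mouse above the highest control. The difference from control was 0.37 at PT 80 ppm (SE 0.14, 95% interval 0.09 to 0.66, adjusted p = 0.0561), 0.36 at MT 100 ppm (SE 0.14, adjusted p = 0.224) and 0.29 at FT 10 ppm (SE 0.14, adjusted p = 0.277).

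The PT 80 ppm value rests on which mice are counted. Without the low mouse, mouse 1 of block 1, the difference was 0.53 (adjusted p = 0.00169) and Ces1c was called higher. Without control mouse 1 it was 0.44 (adjusted p = 0.0291) and also called. Within blocks, on the log2(CPM + 1) scale, the difference was -0.36 in block 1, which holds the low mouse, 1.03 in block 3 and 0.57 in block 4. Scaling by library totals alone moved the median of all genes by 0.12 in this comparison and gave Ces1c 0.48, which was called.

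In the other groups the Ces1c medians lay between 5590 CPM (MT 10 ppm) and 6879 (PT 40 ppm), all above the control median, as were 72 of the 77 treated mice. Of all 77 treated mice 11 exceeded the highest control, 6 of them at PT 80 ppm and 1 at MT 100 ppm. The 2 mice below the lowest control were 1 at FT 2.5 ppm and 1 at PT 80 ppm. In the groups other than PT 80 ppm, MT 100 ppm and FT 10 ppm the estimated differences lay between 0.04 (PT 20 ppm) and 0.22 (PT 40 ppm).

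The summed family level followed Ces1c. It was 5410 ± 1364 CPM in the control group (SD, n = 7) and 7787 ± 2320 at PT 80 ppm, with 6861 ± 548 at MT 100 ppm and 6901 ± 1235 at FT 10 ppm. Control, which includes 2 EPA mice with low Ces1c, had the lowest group mean and PT 80 ppm, with no EPA mouse, the highest. Without Ces1c the sum was 154 ± 73.98 CPM in control and 167 ± 86.96 at PT 80 ppm, and the largest such mean was 238 ± 55.5 at FT 5 ppm. The 5 less counted members together therefore did not follow the order of the groups seen in the full sum.

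Ces1d, the triacylglycerol hydrolase that supplies lipid for VLDL, was measured at 10.8 CPM in the lowest control liver, 27.9 at the median and 45.2 in the highest. At MT 100 ppm the lowest, median and highest values were 22.8, 50.3 and 74.2 CPM, and 6 of 7 mice lay above every control. At FT 10 ppm they were 38.9, 47.4 and 61.2 CPM, and 5 of 7 mice lay above every control. Its estimate was above 0 in every treated group, and that at MT 100 ppm was the largest of the family in either direction.

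The estimates for Ces1d were 0.82 at FT 2.5 ppm (SE 0.31), 0.91 at FT 5 ppm (SE 0.31), 0.90 at FT 10 ppm (SE 0.31) and 0.38 at FT 20 ppm (SE 0.30). In the MT groups 10 ppm gave 0.73, 25 ppm gave 0.65, 50 ppm gave 0.53 and 100 ppm gave 1.03 (SE 0.30, 95% interval 0.43 to 1.64), and for PT the estimates were 0.61 at 20 ppm, 0.66 at 40 ppm and 0.55 at 80 ppm. None passed the test: the lowest adjusted p was 0.102 at FT 10 ppm, followed by 0.109 at MT 100 ppm. Doses did not order these values, since FT 20 ppm, the highest FT dose, had the smallest estimate of all groups. Over all treated mice 63 of 77 were above the control median and 39 above the highest control mouse, and none was below the lowest.

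Fits on fewer mice or terms moved Ces1d at the threshold. It was called at MT 100 ppm when control and the MT groups alone were fitted (1.03), and at FT 10 ppm with block and isolator left out (0.94). By block the MT 100 ppm difference was 0.52 in block 1, 1.83 in block 3 and 0.48 in block 4 on the log2(CPM + 1) scale.

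Ces1f, the second triacylglycerol hydrolase, was measured in control livers at 23.3, 72.3 and 128 CPM (lowest, median, highest). At FT 2.5 ppm these values were 49.7, 119 and 281 CPM, and 3 of 7 mice lay above every control. The estimate there was 0.77 (SE 0.37, adjusted p = 0.438), and that at FT 5 ppm was 0.52 (SE 0.37). From FT 10 ppm on and at every dose of MT and PT the estimates lay between -0.21 and 0.28. At PT 80 ppm the mice ran from 0.919 to 133 CPM with a median of 75.1, close to that of the controls.

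Ces1g, esterase-x, was measured in control livers at 8.63, 17.9 and 31.8 CPM. At PT 80 ppm it ran from 2.02 to 55.4 CPM, the lowest and the highest value of all 84 mice, with a median of 26.9. The estimate was 0.47 (SE 0.29, adjusted p = 0.265). It became 0.71 (adjusted p = 0.0418) without mouse 1 of that group, and Ces1g was then called higher. The other groups had estimates between -0.12 (PT 20 ppm) and 0.44 (FT 5 ppm).

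Ces1e, the egasyn that keeps beta-glucuronidase in the endoplasmic reticulum, had the widest spread among controls, with 4.35, 16.8 and 89.6 CPM. At FT 5 ppm the lowest, median and highest mice had 28.6, 39.7 and 92.7 CPM, and all 7 lay above the control median. At PT 80 ppm they had 0.368, 12.98 and 35.1 CPM. The estimates were 0.85 at FT 5 ppm (SE 0.47, 95% interval -0.08 to 1.79) and -0.61 at PT 80 ppm (SE 0.49, 95% interval -1.58 to 0.36), with adjusted p of 0.697 and 0.420. The groups overlapped in both cases. The PT 80 ppm estimate combines opposite signs: on the log2(CPM + 1) scale the difference was -3.64 in block 1, which holds the mouse with 4 counts, but 0.95 in block 3 and 0.96 in block 4. Without that mouse the estimate was -0.34 (adjusted p = 0.714).

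Ces1b, the close copy of Ces1c, was measured in control livers at 1.22, 4.20 and 8.95 CPM. At PT 40 ppm it was measured at 4.91, 5.89 and 10.6 CPM and at PT 80 ppm at 3.87, 7.45 and 16.99 CPM. All 7 mice at PT 40 ppm and 6 of 7 at PT 80 ppm lay above the control median, and 2 in each group above the highest control. The estimates over the PT doses were -0.27 at 20 ppm, 0.26 at 40 ppm and 0.59 at 80 ppm (SE 0.29, adjusted p = 0.145). In the FT and MT groups the estimates ran from -0.37 to 0.07. Ces1b made up 0.0841% of the family's counts and Ces1c 97.1%, so that even a small share of misplaced Ces1c reads would be large beside Ces1b, and the part of such reads in the Ces1b values was not tested.

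**Figure D3:**
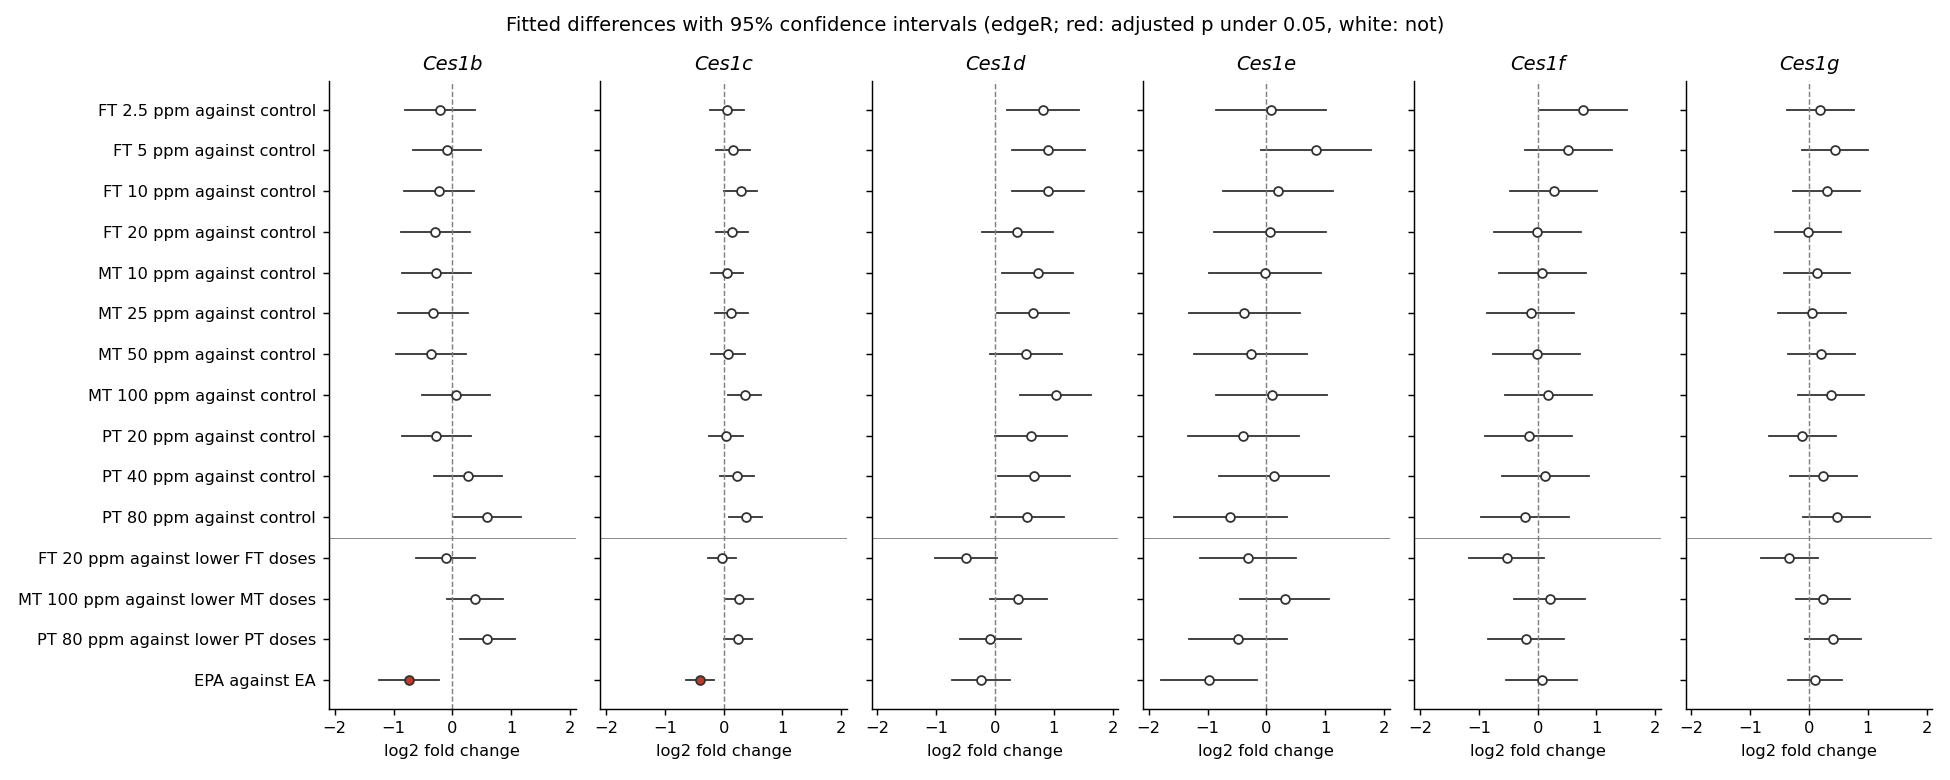
Points are fitted log2 fold changes of each member with 95% confidence intervals, for the 11 groups against control, the highest dose of each OPP against its lower doses, and RNA isolated by the EPA against EA; red points have an adjusted p under 0.05. Red points occur for Ces1b and Ces1c between the isolators, and the Ces1d estimates lie to the right of 0 in all 11 treated groups.

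The dose series of each OPP was also tested in other ways. A test over all doses of an OPP against control called none of the 18 member tests with edgeR, with 4 at an unadjusted p under 0.05, and limma called 1. The lowest adjusted p were 0.0874 for Ces1b and 0.120 for Ces1c over the PT doses, where 19.6% of all genes were called, and 0.246 and 0.454 for Ces1d over the FT and MT doses, where 0.0768% and 0.0864% were.

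Comparing the highest dose with the lower doses of the same OPP leaves the control mice out of the contrast. Here edgeR called none of 18 member tests, with 3 at an unadjusted p under 0.05, DESeq2 none and limma 1 (Ces1b at PT 80 ppm). The authors' adjusted values again gave more calls. The shares of all genes called were 25.7% for PT 80 ppm, 0.0288% for MT 100 ppm and 0% for FT 20 ppm. At an unadjusted p under 0.05 they were 36.8%, 8.45% and 7.35% in the same order. Ces1b was 0.60 higher at PT 80 ppm than at the lower PT doses (SE 0.24, 95% interval 0.13 to 1.07), at an adjusted p of 0.0525 just outside the threshold. Ces1c was estimated at 0.24 (SE 0.12, adjusted p = 0.129) in the same comparison and at 0.27 (SE 0.12, adjusted p = 0.498) for MT 100 ppm. For FT 20 ppm all 6 estimates were below 0, from -0.53 (Ces1f) to -0.03 (Ces1c), while for MT 100 ppm all 6 were above 0. The FT 20 ppm differences were below 0 for all 6 members in blocks 1 and 3 but above 0 for all 6 in block 4, from 0.15 (Ces1c) to 1.15 (Ces1e) on the log2(CPM + 1) scale. Those of MT 100 ppm were above 0 in every block except for Ces1f (-0.057) and Ces1g (-0.20) in block 1. The median of the 6 was -0.33 and 0.29, respectively, against -0.00098 and -0.0055 over all genes tested. For PT 80 ppm the median of the 6 was 0.08.

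FT and MT carry methoxy groups on phosphorus and PT ethoxy groups, and 2 pairs of groups allow a comparison of OPPs at the same dose: FT 10 with MT 10 ppm (1.5 mg/Kg-bw/day) and FT 20 with PT 20 ppm (3 mg/Kg-bw/day). No member was called in the 12 tests by edgeR or DESeq2, none had an unadjusted p under 0.05 with either, and 0% of all genes were called in each pair. With edgeR 7.65% and 3.40% of all genes had an unadjusted p under 0.05. With the authors' adjusted values in place of the counts, 5 members (all but Ces1c) were called between FT 10 ppm and MT 10 ppm and none between FT 20 ppm and PT 20 ppm. All 5 had lower means at FT 10 ppm in those values, as Ces1d with 3.77 against 4.77, while the count estimates of all 6 were above 0. The 2 versions of the data thus differ in sign here. The values that follow are from the counts. For Ces1c FT 10 ppm minus MT 10 ppm was 0.23 (95% interval -0.05 to 0.51), and FT 20 ppm minus PT 20 ppm was 0.10 (95% interval -0.18 to 0.39). For Ces1d these were 0.18 (-0.42 to 0.78) and -0.23 (-0.85 to 0.39), and for Ces1e 0.22 (-0.73 to 1.17) and 0.45 (-0.53 to 1.43). The intervals leave room for differences of either sign. The highest doses differ between the OPPs, so their values can only stand side by side, as for the Ces1c medians of 5921 CPM (FT 20 ppm), 6867 CPM (MT 100 ppm) and 7859 CPM (PT 80 ppm).

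The site of RNA isolation was the term of this model for which members were called. Mice isolated at the EPA were lower in Ces1b by a fitted log2 difference of -0.74 (SE 0.25, adjusted p = 0.0164) and in Ces1c by -0.40 (SE 0.12, adjusted p = 0.00522). Ces1e was estimated at -0.97 (SE 0.41, adjusted p = 0.0532), Ces1d at -0.24, Ces1f at 0.07 and Ces1g at 0.11. Of all genes 38.7% were called between isolators, so 2 of 6 members is close to that share. DESeq2 called Ces1e as well. Neither Ces1b nor Ces1c was called with limma (adjusted p = 0.102 and 0.0870), and without control mouse 3 Ces1b was not called (-0.65). Scaling by library totals alone shifted the median of all genes by 0.15 here and left Ces1c at -0.25 (adjusted p = 0.0747). Group by group, the EPA mice minus the EA mice differed in Ces1c on the log2 scale by -0.43 (control), -0.29 (FT 20 ppm), -0.21 (MT 100 ppm) and -0.07 (MT 10 ppm). The 2 EPA mice of the control group had acute phase sums, as defined below, of 63902 and 99382 CPM, against a median of 23308 in the 5 EA mice. Of the 7 hepatocyte markers 4 were lower in the EPA mice and none higher. Between blocks edgeR called no member, at unadjusted p under 0.05 also none, where 40% (block 3 against block 1) and 38.1% (block 4 against block 1) of all genes were called. At an unadjusted p under 0.05 the shares of all genes were 47.7% and 46.8%.

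The members varied together from mouse to mouse. Of 15 pairs over the 84 mice, the Pearson correlation of log2(CPM + 1) was highest for Ces1f with Ces1g, at 0.77 (Spearman 0.69), and lowest for Ces1b with Ces1f, at 0.07 (Spearman 0.29). It was 0.69 for Ces1e with Ces1g, 0.68 for Ces1e with Ces1f and 0.55 for Ces1b with Ces1c. Without the 2 mice farthest out, Ces1f with Ces1g had 0.62 and Ces1b with Ces1c 0.46, and within blocks these pairs ran from 0.65 to 0.90 and from 0.16 to 0.71. These are descriptions over mice that share groups, blocks and isolators, and a part of the Ces1b, Ces1c and Ces1e values may come from shared reads. Ces1f and Ces1g, the pair with the highest correlation, have 74.6% identical coding bases, and Ces1b and Ces1c have 90.9%. Ces1b and Ces1f, with the lowest correlation, also have the lowest identity, 72.6%. Whether correlation goes with sequence likeness over the 15 pairs was not tested.

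Mice also differed strongly in their acute phase level, the summed CPM of 10 genes of plasma proteins that the liver makes in inflammation (Saa1, Saa2, Saa3, Orm1, Orm2, Hp, Lcn2, Fgb, Crp and Apcs). The sum ran from 10413 to 154528 CPM. It was 12512, 55067 and 100663 CPM in the control group (lowest, median, highest) and 10413, 11821 and 22306 at PT 80 ppm, where 7 of the 10 genes were called lower. Every treated group had a lower median than the control group, between 11821 and 38947 CPM. Among the 5 EA mice of the control group, however, the median was 23308 CPM. The medians at MT 50 ppm (38947 CPM) and PT 20 ppm (34516 CPM), all EA mice, lay above that value. The EA mice at MT 10 ppm (26936 CPM) also lay above it, and the medians of the other groups lay below. The groups to which the members were compared thus differed in this level too.

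All 6 members were lower in mice with a higher acute phase level. In a model with group, block, isolator and the log2 acute phase level, added after the data were seen, each doubling of the acute phase sum went with a log2 change of -0.66 in Ces1e (SE 0.079, adjusted p = 5.35e-10), -0.36 in Ces1f (SE 0.075, adjusted p = 0.000203), -0.32 in Ces1d (SE 0.060, adjusted p = 4.14e-05) and -0.29 in Ces1g (SE 0.056, adjusted p = 8.48e-05). Ces1b followed with -0.22 (SE 0.063, adjusted p = 0.0114) and Ces1c with -0.12 (SE 0.030, adjusted p = 0.00144). Of all genes tested 13.9% were called in this relation, in either direction, and the median change over all genes was 0.0028. All 6 members remained called without mouse 1 of PT 80 ppm, in the EA mice alone and with limma.

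Single mice at the ends of the range did not all follow this relation. The mouse with the lowest acute phase level (10413 CPM, PT 80 ppm, mouse 7) had 27.7 CPM of Ces1e, 122 of Ces1f and 7478 of Ces1c. A mouse near the other end (126037 CPM, PT 40 ppm, mouse 4) had 9.24 CPM of Ces1e, 27.95 of Ces1f and 4972 of Ces1c. The mouse with the highest level (154528 CPM, FT 5 ppm, mouse 3) went the other way for Ces1e, with 31.9 CPM, and for Ces1f, with 122 CPM, and for Ces1d, with 60.7 CPM, while its Ces1c was low at 4078 CPM. Ces1b was no lower at the high end either in the PT 40 ppm mouse, with 10.6 CPM against 8.39 in the mouse with the lowest level. Over all mice the correlation with the log2 acute phase level ran from -0.37 (Ces1f, Spearman -0.65) to -0.62 (Ces1c, Spearman -0.67), and from -0.39 to -0.62 without the 2 mice farthest out. It was weaker in block 1 for Ces1c (-0.25), Ces1e (-0.24), Ces1f (-0.15) and Ces1g (-0.09) than in block 3 (-0.61 to -0.83 for these genes) and block 4 (-0.54 to -0.77).

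**Figure D4:**
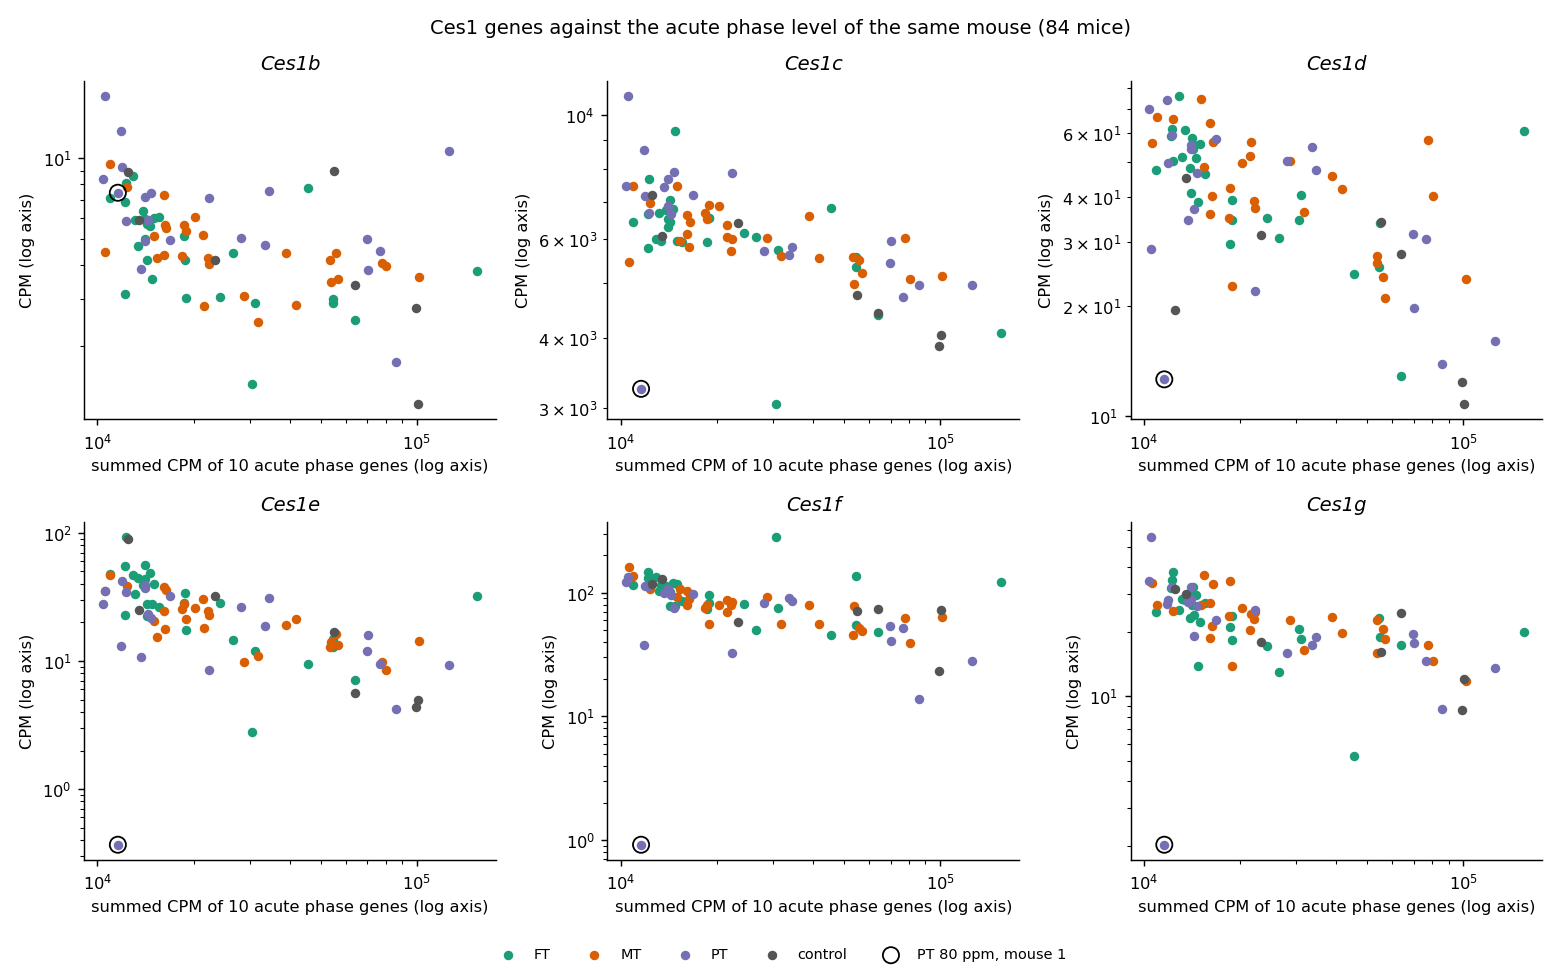
Each panel plots the CPM of a member against the summed CPM of 10 acute phase genes in the same mouse (both axes logarithmic, 84 mice, coloured by OPP). The correlation over the 84 mice is below 0 in all panels, though single mice at the right end lie high, as mouse 3 of FT 5 ppm does for Ces1d, Ces1e and Ces1f and mouse 4 of PT 40 ppm for Ces1b, and the circled mouse 1 of PT 80 ppm lies far below the others in Ces1e, Ces1f and Ces1g.

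With the acute phase level in the model, the estimates against control changed. Ces1c at PT 80 ppm was 0.19 (adjusted p = 0.366) in place of 0.37, Ces1b 0.30 in place of 0.59, and Ces1d 0.10 in place of 0.55. Ces1d at MT 100 ppm was 0.69 (adjusted p = 0.344) in place of 1.03, and at FT 10 ppm 0.52 in place of 0.90. The Ces1e estimate, already below 0, moved further down and was called lower at PT 80 ppm, by -1.39 against control (SE 0.37, adjusted p = 0.00490) and by -1.25 against the lower PT doses (SE 0.32, adjusted p = 0.00295). Without mouse 1 of PT 80 ppm these values were -1.13 (SE 0.33, adjusted p = 0.0150) and -0.998 (SE 0.29, adjusted p = 0.0122), and Ces1c was then called higher against control, by 0.35 (adjusted p = 0.0309). Ces1f at PT 80 ppm was estimated at -0.76 (SE 0.35, adjusted p = 0.136). The acute phase level is itself lower at PT 80 ppm, and what belongs to PT and what to this level cannot be told apart in these mice.

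Markers of other cell types moved with the acute phase level as well. All 5 tested Kupffer cell markers of 6 were called higher per doubling of the acute phase sum, as were 2 of 3 leukocyte markers and the 1 cholangiocyte marker tested, against 1 of 5 endothelial markers, while 1 of 4 stellate cell markers was called lower. Of 7 hepatocyte markers 2 were called lower and none higher. Of all genes tested 13.9% were called in this relation. The summed Kupffer markers ran from 78.2 to 166 CPM in control mice and from 22.7 to 105 at PT 80 ppm, and of the list Timd4 was at 0 in 22 mice. The summed hepatocyte markers ran from 18360 to 38250 CPM in control mice and from 22431 to 38891 at PT 80 ppm. At that dose 3 of 7 hepatocyte markers, 2 of 6 pericentral markers (Cyp2e1 by 0.98, SE 0.14) and 2 of 6 periportal markers were called higher against control, 1 periportal marker was called lower, and 2 of 5 Kupffer markers were called lower. The share of all genes called there was 18.6%. Of the 3 hepatocyte markers, Tat had a median of 4.45 CPM against 4.98 in control, and its highest mouse had 86.8 CPM. The part of these markers in the values of the members was not tested.

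Mouse 1 of PT 80 ppm stood apart for the family. Its Ces1e was 0.368 CPM (4 counts), its Ces1f 0.919 CPM (10 counts) and its Ces1g 2.02 CPM (22 counts), each the lowest of all 84 mice. The other 6 mice of its group had 8.50 to 35.1 CPM of Ces1e, 32.8 to 133 of Ces1f and 25.4 to 55.4 of Ces1g. Its Ces1c, 3243 CPM against 7431 to 10785 in the other mice, was the lowest but 1 of all, and its Ces1d was 12.6 CPM. Ces1b was not low in it, with 7.45 CPM against 3.87 to 16.99. Its acute phase sum, 11592 CPM, was among the low ones of the study, its total of 10877259 counts was in the usual range, and its Alb (7184 CPM) and Cyp2e1 (22564 CPM) lay inside the range of all mice. Its Cyp2f2, a periportal cytochrome P450, was 121 CPM, the lowest of all mice (148 in the next). Its Saa1 (8.92 CPM) and Saa2 (5.52 CPM), genes of the acute phase sum, were also the lowest of all mice. The low values thus included 5 members and also these genes outside the family. How many other genes were low in this mouse was not counted.

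Genes that tracked a member over the 84 mice, after block and isolator were subtracted, differed between members. Ces1f was most like Cat (catalase, r = 0.90), Car3 (carbonic anhydrase 3, 0.88) and Fabp1 (liver fatty acid binding protein, 0.83). Ces1g was most like Mme (neprilysin, 0.85), Tmbim6 (0.82) and Cat (0.80), and Ces1e like Gm15635 (0.85), Hyi (0.85) and Mme (0.84). Ces1c was most like Acadl (long chain acyl-CoA dehydrogenase, 0.86), Cyp2d10 (a cytochrome P450, 0.82) and Kat2b (an acetyltransferase, 0.82), and Ces1d like Gsta3 (a glutathione transferase, 0.79), Apoc4 (0.72) and Abca8a (0.71). Ces1b was most like Cox20 (0.75), Rpl38-ps1 (0.69) and Rpl24 (0.69), and both Rpl genes belong to ribosomal protein families. The summed family was followed by Acadl (0.86) and Kat2b (0.83) after Ces1c itself.

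Related genes are counted here beside the 18.6% of all genes called at PT 80 ppm, and the difference between these lists and the members was not tested. At that dose 5 of 9 tested genes among the other carboxylesterases were called against control, 4 of them lower, and Ces2e, of the carboxylesterase 2 family, fell by 1.14 on the log2 scale (SE 0.21), while Ces2a rose by 0.49 (SE 0.13). Of 14 other esterases and lipases 4 rose and none fell, among them Bche (butyrylcholinesterase, 0.71, SE 0.11), from a median of 173 to 327 CPM, and Pon1 (paraoxonase 1, which hydrolyses oxons, 0.72, SE 0.15), from 188 to 315 CPM. Ache stayed under the filter, with 0 to 0.975 CPM. Among 15 liver transcription factors and nuclear receptors 3 rose: Nr1i3 (the constitutive androstane receptor, 1.78, SE 0.24), Hnf4a (0.53, SE 0.12) and Nr1i2 (the pregnane X receptor, 0.52, SE 0.12). The counts for the other esterases and lipases and for the transcription factors were near the share of all genes.

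At PT 80 ppm 1 of 3 tested genes of retention in the endoplasmic reticulum and 1 of 8 VLDL assembly genes were called, both lower. The share of all genes called there was 18.6%, and a difference from it was not tested. Of 3 tested genes of retention in this compartment, Gusb (beta-glucuronidase, the partner of egasyn) and the KDEL receptors Kdelr1 and Kdelr2, the last fell by 0.24 (SE 0.077) at PT 80 ppm, and of 8 VLDL assembly genes Pdia3 (a protein disulfide isomerase) fell by 0.31 (SE 0.11). Medians over the lists were -0.48 for the other carboxylesterases, 0.03 for the other esterases and lipases, 0.11 for the transcription factors, -0.18 for the retention genes and -0.06 for the VLDL genes, beside 0.42 for the 6 members and 0.01 for all genes tested. At FT 10 ppm and MT 100 ppm none of these lists had a called gene except 1 transcription factor, lower at FT 10 ppm.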

How the data were processed

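Liver RNA of 84 mice was measured by TempO-Seq. The authors aligned reads to mm39 with STAR and quantified Ensembl transcripts in Partek, and the estimated counts they deposited were not normalized, with 17.87% not whole (tolerance 1e-06). The adjusted values deposited by the authors, entered as a score, are log2 values corrected for block and RNA isolator, and they served as an alternative only. In them the control group held only 5 distinct values among 7 mice. The number of per-sample columns left unused was 0.

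Counts were rounded and fitted with edgeR 4.0.16 (quasi-likelihood test, TMM) in 1 model over all mice with group, block and isolator, keeping genes whose median count exceeded 8 (10415 genes), with Benjamini-Hochberg adjustment over all genes per comparison. Intervals are 95% intervals of the fit. DESeq2 1.42.0, limma 3.58.1, other scalings, filters, covariates and mice left out served as alternatives. Other steps used R 4.3.3, matplotlib 3.10.9, Biopython 1.88, scipy 1.17.1, pandas 2.3.3 and numpy 2.4.6 under Python 3.11.15. The fits were also run on simulated counts with large planted changes. Variation was capped there below that of Ces1e and Ces1f, so the run does not speak to these members. Correlations and the summed family level have no test.

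The members and gene lists were chosen with earlier results of these data known. Genes named are the members, called genes of the lists at PT 80 ppm (at most 6 per list) and the 3 genes most correlated with each member. Coordinates are from GENCODE on GRCm39, promoters from RefSeq on GRCm38.p6, and proteins were not used here. Nothing pairs mice between groups, and counts lack molecular identifiers, so totals and the limit of 3 counts cover counting error only.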

Additional observations from a re-analysis of the deposited data

Results flagged for a closer look

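In 12 of 84 combinations of a group with a member or the family sum, the highest or lowest mouse stood farther from the others than Dixon's 95% critical value for 7 mice allows, where about 4.2 would be found at 1 in 20. The combinations are not independent, since the family sum is in practice Ces1c and the members vary together. The 12 and the 4.2 therefore give no measure of excess. Mouse 4 of MT 50 ppm was high in 3 members, with 9.51 CPM of Ces1b (the others 2.82 to 4.46), 47.04 of Ces1e (13.3 to 22.8) and 136 of Ces1f (48.6 to 84.5).

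Mouse 7 of FT 2.5 ppm was high in Ces1f, with 281 CPM against 49.7 to 135 in the others, and low in Ces1c, with 3046 CPM against 5578 to 6777, so that its family sum was 3386 CPM. Mouse 2 of FT 10 ppm was high in Ces1c (9351 CPM, the others 5738 to 7048) and hence in the family sum (9513 CPM). Ces1e was high in mouse 1 of the control group (89.6 CPM, the others 4.35 to 31.99), in mouse 4 of FT 5 ppm (92.7 CPM, the others 28.6 to 55.3) and in mouse 7 of FT 20 ppm (56.6 CPM, the others 7.07 to 28.3). Ces1g was high in mouse 2 of PT 20 ppm (32.5 CPM, the others 8.76 to 18.9). The cause was not tested for any of them.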

How the results depend on the processing

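Against control, where edgeR called 0 of 66 member tests, the count was 1 with DESeq2, 1 with library totals alone, 1 with the acute phase level as a covariate (2 without PT 80 ppm mouse 1), 2 with limma at a pseudocount of 1 or 0.1, 2 with control and the doses of 1 OPP alone, 2 without block and isolator and 19 with the authors' adjusted values. Tests on the adjusted values understate the spread within groups, so their counts here and below are not comparable with the others. The count against control ran from 0 to 2 when a control or PT 80 ppm mouse was left out, with 2 without PT 80 ppm mouse 1 and 1 without control mouse 1. Over the doses of an OPP the count of 0 became 1 with limma, 1 with the acute phase level, 2 with library totals and 11 with the adjusted values, and ran from 0 to 2 with a mouse left out. For the highest against the lower doses it became 4 with the adjusted values, 1 with limma, 1 with the acute phase level (also without PT 80 ppm mouse 1), 1 with the filter on rounded counts, where Ces1b at PT 80 ppm was 0.61 (adjusted p = 0.0471), and 2 with library totals, and ran from 0 to 2 with a mouse left out. For isolators and blocks the count of 2 became 4 with the acute phase level, 1 with library totals and 0 with limma, and ran from 1 (without control mouse 3) to 4 (without PT 80 ppm mouse 1). Between OPPs at a matched dose the count of 0 became 5 with the adjusted values and stayed 0 in the other alternatives run, and per doubling of the acute phase level it stayed 6 in each. Of the values of single members, 294 of 308 with a mouse left out and 233 of 265 in other alternatives kept their direction and side of the threshold. Ces1e at PT 80 ppm against control went from -0.61 to 0.060 with the adjusted values. Ces1f there was -0.21 and ran from -0.42 (without PT 80 ppm mouse 3) to 0.032 (without PT 80 ppm mouse 1). Neither was called. The causes were not tested. The family sum with TMM scaling was 5421 CPM in control and 7442 at PT 80 ppm. The rounded filter, the acute phase covariate and the alternatives with it, and, outside the comparisons with control, library totals and mice left out, the adjusted values for highest and matched doses, and limma for matched doses, were chosen after seeing the data, as was limma for isolators and blocks. No paired analysis was possible because the sample descriptions give no replicate numbers that groups share, and block is already in the model. At 7 mice per group the SE of Ces1e left log2 differences of about 1 undetected.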
